A study of Mus musculus with 12 samples.

Results

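The genes described here encode the proteins of the cytosolic ribosome. Members were taken by gene symbol from the count tables of mouse sperm and of mouse testes: symbols of the Rpl and Rps series that go on with a number, with Rpsa, Rplp0, Rplp1 and Rplp2, and without the Rps6k kinases, Rps19bp names and names holding -ps. This gave 91 of 51826 gene entries in the sperm table and 96 of 23502 in the testes table. The sperm members comprised 54 large-subunit (Rpl) and 37 small-subunit (Rps) entries, and the testes members 55 and 41. The members had 93 different symbols, of which 86 were in both tables. The testes table held 8 members as numbered repeats of a symbol, such as Rps18-2, and the sperm table held 0. What the numbered repeats stand for is not stated, so any place or length used for them is that of the symbol without the number. After the filter on low counts, 90 members were tested among 20945 genes in sperm and 92 among 16821 in testes. The untested sperm member was Rps12l1, which had 0 counts in every sperm library, and the untested testes members were Rpl32l, Rps18-3, Rps18-4 and Rps28-4.

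Ribosomes translate mRNA through a small subunit, which reads the message, and a large subunit, which joins the amino acids. Most mammalian ribosomal proteins come from a single active gene, and their mRNAs begin with a pyrimidine tract (the TOP motif) that couples their translation to growth signals. In male germ cells the X chromosome is silenced during meiosis, and autosomal copies of X-linked ribosomal protein genes, among them Rpl10l for Rpl10 and Rpl39l for Rpl39, are active there. Mature sperm make little protein on cytosolic ribosomes and carry RNA that is largely left from earlier stages.

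The study asked what the related proteins Xap5 and Xap5l, encoded by Fam50a and Fam50b in the count tables, do in male germ cells. Poly(A) RNA was sequenced from mature sperm of the cauda epididymis at P56 and from whole testes at P16, with 3 biological replicates per genotype. Sperm came from WT mice and from Xap5l KO mice, a global knockout made with CRISPR/Cas9 on the C57BL/6J background. Testes came from Xap5 cKO mice, which carried a floxed X-linked Xap5 allele and the Stra8-GFPCre knock-in, a Cre active in germ cells from spermatogonia on, and from floxed Xap5 males without Cre, called WT here. Cells without Stra8 expression keep Xap5 in the Xap5 cKO testes. The total counts of WT sperm replicates 1 to 3 were 40198158, 38881197 and 41716085, and those of Xap5l KO sperm were 43373223, 49355735 and 52308452. In WT testes the totals were 34063501, 36759054 and 35406808, and in Xap5 cKO testes 32251198, 33754554 and 32995710.

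The targeted genes were read first as a check of the labels. Fam50b had WT counts of 574, 440 and 419, against 18, 23 and 8 in Xap5l KO sperm, with no overlap between the groups (log2 fold change −5.15, adjusted p 0.0118). Fam50a was counted 819, 811 and 988 times in WT replicates, and 673, 616 and 651 times in Xap5 cKO testes. Those groups did not overlap either (log2 fold change −0.33, adjusted p 0.0495). The gene that was not targeted also differed: Fam50a fell by 0.76 on the log2 scale in Xap5l KO sperm (adjusted p 0.0393). In testes Fam50b gave WT counts of 532, 539 and 197, against 6, 0 and 7 in the cKO libraries (log2 fold change −6.48, adjusted p 8.09e-05). Every adjusted p here comes from the quasi-likelihood test of edgeR, adjusted after Benjamini and Hochberg over all genes tested in that tissue, and a gene is said to have passed, risen or fallen when it was under 0.05. Each tissue was fitted alone, and differences between the tissues were not tested.

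Levels within WT samples were compared per kilobase of annotated transcript, as normalized CPM (library-scaled counts, here with TMM, the trimmed mean of M values). In WT sperm the members with the highest level were Rps26, at 1959 ± 459 CPM per kb (SD, n = 3), Rpl41, at 1890.2 ± 420, and Rplp1, at 1717 ± 152. The median member stood at 391 CPM per kb. The lowest tested were Rps3a3, at 4.51 ± 0.785, Rpl3l, at 7.20 ± 0.518, and Rps3a2, at 9.80 ± 0.186; Rps3a2 and Rps3a3 are annotated as processed pseudogenes, and Rpl3l is known as the striated-muscle form of Rpl3. In WT testes the highest were Rplp0, at 951 ± 43.9 CPM per kb, Rpl13, at 574 ± 21.9, and Rps14, at 559 ± 51.7, around a median of 219. Among the 91 tested entries with an annotated length, which leaves out Rps23rg1, the lowest there were Rps28-3, at 0.795 ± 0.567, Rpl3l, at 1.66 ± 0.207, and Rps18-2, at 10.9 ± 2.66, with Rps28-3 and Rps18-2 scaled by the lengths of Rps28 and Rps18. The order among the 3 highest in sperm lay within their spread, and so did that of Rpl13, Rps14 and Rplp1, which had 558 ± 39.7, in testes.

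In Xap5l KO sperm most ribosomal protein mRNAs had lower values than in WT, and the germ-cell paralogues Rpl10l and Rpl39l were higher. Members took up 2.48%, 3.38% and 3.52% of the counts of WT sperm libraries, against 1.69%, 2.23% and 2.31% for Xap5l KO sperm. Every KO library was below every WT library in this share, whose means were 3.13 ± 0.562% and 2.08 ± 0.339% (SD, n = 3). Summed over members, TMM-normalized CPM was 31084 ± 704 in WT and 20526 ± 570 in Xap5l KO sperm. The median log2 fold change was −0.58 over the 90 members, with quartiles of −0.70 and −0.45, and −0.08 over all 20945 genes tested. Of the members, 87 had a negative fold change and 3 a positive one. Large-subunit and small-subunit members had the same median to 2 decimals, −0.58. The median of all genes was 0.10 with DESeq2 and 0.13 without the low-count filter, and the members' median was −0.55 and −0.52 in those fits.

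Few single members passed the test. In sperm 9 of 90 members (10%) fell, where 3.07% of all genes tested did, and 2 (2.22%) rose, where 9.02% of all genes did. With a change of more than 2-fold as well, 0 members fell (1.27% of all genes), with 0 also at an unadjusted p under 0.05 in edgeR and 0 in DESeq2, and 1 rose (7.59% of all genes), against 2 in DESeq2. All 3 KO libraries were below all 3 WT libraries for 68 members (75.6%), as for 19.2% of all genes, while 2 members lay wholly above and 20 overlapped. DESeq2 called 31 members lower (34.4%, where it called 5.37% of 19924 genes lower) and 2 higher (2.22%, where it called 13.2% higher). At an unadjusted p under 0.05 in edgeR, 55 members (61.1%) were lower, as were 14.9% of all genes. The count of 9 depended on single libraries: it was 17 without WT replicate 1, 1 without KO replicate 1, and 0 without WT replicate 2, WT replicate 3 or KO replicate 2. The count of 2 that rose was 0 without WT replicate 2, WT replicate 3 or KO replicate 2. The members' median stayed between −0.61 and −0.55 whichever library was left out. Across genes, which are not independent replicates, KO replicate 3 correlated with KO replicate 1 at 0.947 and with WT replicate 1 at 0.952, so it was no nearer to KO replicate 1 than to a WT library, while it correlated with KO replicate 2 at 0.962.

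**Figure D1:**
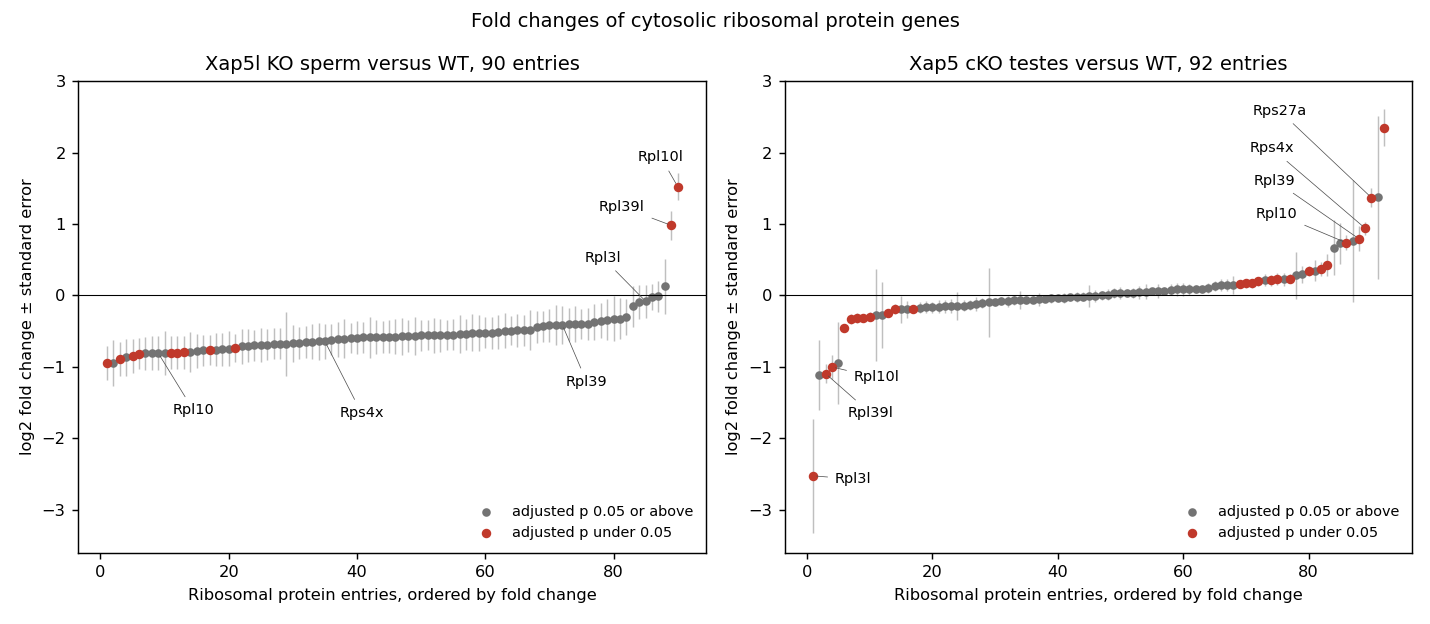
Log2 fold change of each tested cytosolic ribosomal protein entry, mutant over WT, ordered from lowest to highest, in sperm (left, 90 entries) and testes (right, 92 entries), with 3 libraries per genotype. Bars are standard errors and red points passed the test. In sperm 87 entries lie below 0 with Rpl39l and Rpl10l at the upper end, and in testes 46 lie on each side of 0.

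All 9 members that fell in sperm by edgeR's test belonged to the large subunit, as did 23 of the 31 that DESeq2 called lower. The split by subunit in edgeR rested on the threshold. The small-subunit pseudogene entry Rps3a2 just missed it (log2 fold change −0.81, adjusted p 0.05001) and passed in 4 of 15 alternatives. Rpl15, which is needed for processing of large-subunit rRNA, had WT counts of 8780, 13830 and 11036, against 4221, 8085 and 9610 in Xap5l KO sperm. KO replicate 3 was above WT replicate 1 in raw counts, but after scaling the groups did not overlap, at 278 ± 46.3 and 144 ± 22.3 CPM (SD, n = 3; log2 fold change −0.95, adjusted p 0.0353). Rpl5 forms, with Rpl11 and a small rRNA, the particle that is built into the large subunit and that can hold back the p53 regulator Mdm2. It was counted 16008, 23174 and 23171 times in WT replicates, and 9903, 15602 and 18497 times in KO sperm, again with no overlap after scaling (512 ± 34.2 and 294 ± 20.3 CPM, log2 fold change −0.80, adjusted p 0.0498). Its partner Rpl11 did not pass (log2 fold change −0.57, adjusted p 0.14). Rpl22, near the peptide exit tunnel, fell by 0.73 on the log2 scale (adjusted p 0.0434), and it was 1 of 9 exit-tunnel members tested to pass, while 8 were lower at an unadjusted p under 0.05 and 6 in DESeq2. Among all genes tested in sperm, 3.07% fell, 14.9% were lower at an unadjusted p under 0.05 and 5.37% in DESeq2. Rpl36a, an X-linked member, had WT counts of 2649, 4510 and 4320, against 1755, 2926 and 3603 in KO sperm. Its groups did not overlap after scaling (log2 fold change −0.77, adjusted p 0.0437). The other 5 that fell were Rpl21 (log2 fold change −0.88, adjusted p 0.0428), the pseudogene entry Rpl37rt (−0.85, 0.0488), Rpl7 (−0.81, 0.0435), Rpl29 (−0.80, 0.0489) and Rpl23 (−0.80, 0.04998). Rpl37rt shares a run of 248 bases with Rpl37, and their sum did not pass (−0.55, adjusted p 0.111). With near-identical entries summed, 9 members fell, of which 8 were among the 9 named here. Rpl15, Rpl5, Rpl36a, Rpl22 and Rpl21 each lost the call without WT replicate 2, WT replicate 3, KO replicate 1 or KO replicate 2, as did Rpl7, Rpl23, Rpl29 and Rpl37rt. Rpl7, Rpl29 and Rpl37rt also lost it without KO replicate 3, and Rpl29 and Rpl37rt without WT replicate 1. Over the libraries left out, the adjusted p of Rpl15 ran from 0.028 to 0.155 and its log2 fold change from −1.06 to −0.82.

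Other structural groups had the same sign without passing in edgeR. Of all 90 members, 10% fell, 61.1% were lower at an unadjusted p under 0.05 and 34.4% in DESeq2. The shares of all genes tested were 3.07%, 14.9% and 5.37%. The stalk proteins Rplp0, Rplp1 and Rplp2, which recruit elongation factors to the large subunit, had log2 fold changes of −0.52, −0.40 and −0.56 (adjusted p 0.182, 0.276 and 0.146), with 1 at an unadjusted p under 0.05 and 0 called by DESeq2. Among 36 tested small-subunit members, 0 passed in edgeR in either direction, while 20 had an unadjusted p under 0.05 in the lower direction and DESeq2 called 8 lower. Their log2 fold changes ran from −0.95 to −0.01. The 5 members tested at the mRNA entry and head of the small subunit had a median of −0.61, and DESeq2 called 2 of them lower. Of the 19 genes mutated in Diamond-Blackfan anemia, an inherited red-cell disorder of ribosome production, 2 fell (Rpl15 and Rpl5; 12 were lower at an unadjusted p under 0.05 and 3 in DESeq2) and the 19 had a median of −0.57. Of the other X-linked members, Rpl10 was at −0.81 on the log2 scale (adjusted p 0.0561), Rps4x −0.64 (adjusted p 0.1) and Rpl39 −0.41 (adjusted p 0.302). Rpl10 passed without WT replicate 1 (adjusted p 0.0373, in a range of 0.0373 to 0.209 over the libraries left out). DESeq2 called 3 of the 4 X-linked members lower, and with it the adjusted p was 0.0064 for Rpl10, in a range of 0.0064 to 0.209 over all alternatives, and 0.0268 for Rps4x, in a range of 0.0268 to 0.277.

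Rpl10l and Rpl39l stood at the other end of the order in sperm. Rpl10l, an intronless autosomal copy of Rpl10 that male germ cells need to complete meiosis, was counted 463, 503 and 582 times in WT replicates, and 1188, 2257 and 2110 times in Xap5l KO sperm. Every KO library was above every WT library. Its level was 12.9 ± 1.08 CPM in WT and 37.0 ± 3.48 in KO (SD, n = 3), a 2.88-fold rise (log2 fold change 1.52 ± 0.193 SE, adjusted p 0.0118). Rpl39l, the germ-cell counterpart of Rpl39 at the wall of the exit tunnel, had WT counts of 1163, 1238 and 1445, against 1901, 3483 and 4198 in KO sperm. The groups again did not overlap, at 31.97 ± 3.01 and 63.1 ± 8.88 CPM (log2 fold change 0.98 ± 0.203 SE, adjusted p 0.0199). Both lost the call without WT replicate 2, WT replicate 3 or KO replicate 2, with adjusted p from 0.00139 to 0.0812 for Rpl10l and from 0.0114 to 0.115 for Rpl39l. Their log2 fold changes stayed between 1.45 and 1.62, and between 0.92 and 1.08, over the libraries left out. Rpl39l also missed the threshold with library size alone as the scaling (adjusted p 0.058, in a range of 0.000459 to 0.115 over all alternatives).

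The coding sequences show how far reads can tell these copies from their partners. Rpl10l and Rpl10 each have 645 coding bases, of which 98 differ (84.8% identity), and their longest shared run is 23 bases. Rpl39l, at chr16:10170226-10174911 on the + strand of GRCm38, and Rpl39, at chrX:37082520-37085402 on the − strand, each have 156 coding bases, of which 23 differ (85.3% identity), and their longest shared run is 38 bases. Rpl10l lies at chr12:66283379-66284401 (−) in 1 exon, and Rpl10 at chrX:74270812-74273135 (+). The Rpl39l and Rpl39 coding sequences are short enough to show whole, with the bases that differ between them in capitals.
Rpl39l: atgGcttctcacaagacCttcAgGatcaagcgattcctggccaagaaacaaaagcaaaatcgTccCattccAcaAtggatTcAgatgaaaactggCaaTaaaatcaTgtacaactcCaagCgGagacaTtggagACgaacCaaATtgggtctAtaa
Rpl39: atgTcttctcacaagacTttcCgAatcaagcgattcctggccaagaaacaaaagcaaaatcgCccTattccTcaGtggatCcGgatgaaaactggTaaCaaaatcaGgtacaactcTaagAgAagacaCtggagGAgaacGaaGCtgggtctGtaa

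The remaining paralogues did not follow Rpl10l and Rpl39l in sperm, where 0 of 7 passed in edgeR or DESeq2 in either direction, and 2 had an unadjusted p under 0.05, both lower. Rpl3l gave −0.08 on the log2 scale (adjusted p 0.827), Rpl7l1 −0.55 (adjusted p 0.105), Rpl36al −0.42 (adjusted p 0.229), Rps27l −0.52 (adjusted p 0.185) and Rps27rt −0.95 (adjusted p 0.0808). Rps27rt passed without KO replicate 1 (adjusted p 0.0482, in a range of 0.0482 to 0.215). Its coding sequence is identical to that of Rps27, and the sum of both gave −0.41 (adjusted p 0.227). Rps4l, annotated as a pseudogene, had −0.02 (adjusted p 0.946). Rpl22l1, a copy of Rpl22, was counted 492, 859 and 721 times in WT replicates, and 410, 627 and 1899 times in KO sperm. KO replicate 3 alone was above the WT libraries, and the groups overlapped (log2 fold change 0.13, adjusted p 0.834). Its log2 fold change ran from −0.48, without that library, to 0.38 over the libraries left out.

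Genes that work with the ribosome were read beside the members in sperm, where 3.07% of all genes fell and 9.02% rose. At an unadjusted p under 0.05, 14.9% of all genes were lower, and DESeq2 called 5.37% lower and 13.2% higher. Of 78 mitochondrial ribosomal protein genes, which serve a separate ribosome, 5 fell and 1 rose in Xap5l KO sperm (4 and 2 in DESeq2), with a median log2 fold change of −0.34. Mrpl45 (−0.79, adjusted p 0.0293) and Mrps21 (−0.76, adjusted p 0.0312) had the lowest values among those that fell, and Mrpl47 rose (1.17, adjusted p 0.0375). Of 17 translation factors whose mRNAs carry a TOP motif, 0 passed in edgeR, 6 were lower at an unadjusted p under 0.05 and 4 in DESeq2, and their median was −0.45. Of 49 ribosome biogenesis genes 1 fell, Ncl, which encodes the nucleolar protein nucleolin (log2 fold change −0.95, adjusted p 0.0205), around a median of −0.20. In this list 10 were lower and 2 higher at an unadjusted p under 0.05, and DESeq2 called 1 lower and 1 higher.

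Markers of leukocytes, erythroid cells and epithelium had lower mean sums in Xap5l KO sperm, though few of these genes passed. Of all genes tested in sperm, 3.07% fell and 9.02% rose. At an unadjusted p under 0.05 in edgeR 14.9% were lower, and DESeq2 called 5.37% lower and 13.2% higher. The most abundant gene of each list is that with the highest mean CPM over all libraries of the tissue. Summed CPM of the leukocyte list was 800.0, 757 and 835 in WT and 144, 360 and 484 in Xap5l KO sperm. The groups did not overlap, 2 of 8 tested entries fell (S100a9 and Cd14, with 6 lower at an unadjusted p under 0.05 and 6 in DESeq2), and Lyz2 was the most abundant. The erythroid list summed to 16339, 3300.4 and 5175 CPM in WT and 4030.4, 1206 and 2861 in KO, with Hbb-bs the most abundant and 0 of 4 passing (3 lower at an unadjusted p under 0.05, 0 in DESeq2). WT replicate 1 was the highest and the groups overlapped. Epididymal epithelium markers summed to 5867, 7974 and 6807 CPM in WT and 4937, 4144 and 5779 in KO, with Crisp1 the most abundant and 0 of 5 tested passing (2 lower at an unadjusted p under 0.05, 1 in DESeq2). Markers of epithelium in general summed to 345, 412 and 386 CPM in WT and 254, 308 and 284 in KO, with Krt19 the most abundant and 0 of 5 passing (2 lower at an unadjusted p under 0.05, 0 in DESeq2). In both epithelial lists every KO library was below every WT library. Germ-cell markers that passed went the other way. Of these, 3 of 7 pachytene spermatocyte markers rose, and 4 in DESeq2, while 1 (Piwil1) was lower at an unadjusted p under 0.05 (2586, 1641 and 1613 CPM in WT, 3415, 3260.5 and 3455 in KO, Pgk2 the most abundant). Of the round spermatid markers 5 of 6 rose, and 5 in DESeq2, with sums of 895, 412 and 449 CPM in WT and 758, 646 and 604 in KO and Tssk6 the most abundant. Tssk6 had a negative change that did not pass, at 505 ± 257 CPM in WT and 424 ± 48.3 in KO (SD; log2 fold change −0.25, adjusted p 0.627). Of the elongating spermatid markers 1 of 6 rose, and 2 in DESeq2, with sums of 47609, 22957 and 23182 CPM in WT and 38461, 24701 and 45098 in KO and Prm2 the most abundant. Odf1 was above Prm2 in each WT library and stood at −0.69 on the log2 scale (adjusted p 0.382). The sums of the genotypes were apart for the pachytene list and overlapped for both spermatid lists.

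The remaining marker lists were low in sperm. Sertoli cell markers summed to 17.2, 18.04 and 22.7 CPM in WT and 18.1, 13.1 and 6.62 in KO (1 of 5 tested fell, with 3 lower at an unadjusted p under 0.05 and 1 in DESeq2, and Sox9 the most abundant). Leydig cell markers summed to 35.9, 20.5 and 15.7 CPM in WT and 15.3, 9.43 and 7.24 in KO, with Insl3 the most abundant. Of the 5 tested 0 passed, while 3 were lower at an unadjusted p under 0.05 and 1 in DESeq2. Peritubular myoid markers (Acta2 the most abundant), spermatogonia markers (Kit) and leptotene and zygotene markers (Sycp1) had 0 genes passing in edgeR or DESeq2 and 1 in all, a spermatogonia marker, at an unadjusted p under 0.05. Their mean sums were 8.13, 23.8 and 17.6 CPM in WT and 8.47, 24.5 and 20.2 CPM in KO. Across the sperm lists 0 markers had 0 counts in every library. Mitochondrially encoded genes took 20.2%, 24.0% and 19.3% of counts in WT and 27.4%, 18.6% and 10.5% in KO sperm, with the KO libraries on both sides of the WT libraries. The part of these other cells, and of germ-cell stages, in the lower ribosomal protein levels and in the rise of Rpl10l and Rpl39l was not tested. In bulk RNA, fewer cells of a type and less RNA per cell cannot be told apart.

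In Xap5 cKO testes the ribosomal protein genes as a group had a median change of 0.00, while the germ-cell paralogues were lower and their X-linked partners higher. Members took up 1.84%, 1.74% and 1.93% of the counts of WT testes libraries, against 1.83%, 1.99% and 1.84% for Xap5 cKO testes. The groups overlapped, with means of 1.83 ± 0.0935% and 1.89 ± 0.0908% (SD, n = 3). The median log2 fold change of the 92 members was 0.00, with quartiles of −0.15 and 0.17, and that of all 16821 genes tested was −0.01. Of the members, 46 had a negative and 46 a positive fold change. In the test 11 members (12%) fell, where 28.1% of all genes did, and 15 (16.3%) rose, where 25% of all genes did. With a change of more than 2-fold as well, 3 fell (10.9% of all genes) and 2 rose (4.15% of all genes). Rpl10l was at the edge of that rule, and DESeq2 counted 2 and 2. The genotypes did not overlap for 35 members (38%), with 15 below and 20 above, where 62.3% of all genes did not overlap in 1 direction or the other. The number that fell was 9 to 12 over the libraries left out, and the number that rose was 7 to 18, with 7 without WT replicate 2 and 8 without cKO replicate 2.

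WT testes replicate 3 stood apart from the other WT testes. Across genes, its correlations with the cKO libraries were 0.928 to 0.933, against 0.897 to 0.902 for WT replicate 1 and 0.897 to 0.903 for WT replicate 2. These correlations are descriptions. Its sum of pachytene markers, 1243 CPM, was also below the 2527 and 2466 of the other WT testes.

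Rpl10l and Rpl39l fell in Xap5 cKO testes. Rpl10l had WT counts of 4258, 4662 and 3423, against 1534, 1792 and 2455 in cKO testes. The groups did not overlap, with WT replicate 3 the lowest WT library. The level was 117 ± 18.6 CPM in WT and 58.3 ± 14.3 in cKO (SD, n = 3; log2 fold change −1.0003 ± 0.173 SE, adjusted p 0.00115). Rpl39l was counted 1726, 1962 and 1593 times in WT replicates, and 629, 830 and 859 times in cKO testes. Its groups did not overlap either, at 49.8 ± 4.96 and 23.3 ± 3.39 CPM (log2 fold change −1.09 ± 0.131 SE, adjusted p 0.000145). Leaving out any library kept both calls, with log2 fold changes from −1.22 to −0.87 for Rpl10l and from −1.19 to −0.97 for Rpl39l.

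Of the 4 X-linked members, 3 rose in the same testes, among them Rpl10 and Rpl39, the partners of Rpl10l and Rpl39l. Rps4x, the X-linked small-subunit protein S4, had WT counts of 5284, 4942 and 6471, against 9829, 10220 and 9948 in Xap5 cKO testes. Every cKO library was above every WT library, at 303 ± 2.82 against 158 ± 22.1 CPM (log2 fold change 0.94, adjusted p 5.74e-05). Rpl10, which helps place tRNA and completes the large subunit late in its assembly, was counted 5948, 5805 and 7586 times in WT replicates, and 10360, 10687 and 9097 times in cKO. The groups did not overlap (182 ± 26.2 and 304 ± 24.4 CPM, log2 fold change 0.74, adjusted p 0.000352). Rpl39 had WT counts of 671, 690 and 861, against 924, 1537 and 1156 in cKO testes. It too had no overlap (20.95 ± 2.64 and 36.3 ± 8.26 CPM, log2 fold change 0.79, adjusted p 0.00391). Over the libraries left out, log2 fold changes were 0.84 to 1.05 for Rps4x, 0.65 to 0.85 for Rpl10 and 0.62 to 0.94 for Rpl39, and all 3 passed each time. The fourth X-linked member, Rpl36a, did not pass (log2 fold change 0.30, adjusted p 0.0612), but did without WT replicate 3 and with DESeq2 (adjusted p 0.0202 and 0.0375, in a range of 0.0202 to 0.195 over all alternatives).

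These X-linked members lay on a chromosome whose genes were often higher. Of 634 X-linked genes tested in testes, 48.7% rose and 9.78% fell, with a median log2 fold change of 0.42. Of 14784 autosomal genes, 24.95% rose and 29.6% fell, with a median of −0.02. The 4 X-linked members, with 3 that rose, had a median of 0.77. In sperm 19.5% of 884 X-linked genes rose and 4.75% fell (median −0.05), and the 4 X-linked members had a median of −0.71 with 1 that fell.

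The share of a pair's counts held by the paralogue shows both genes together in each library. In WT sperm Rpl10l held 2.57%, 1.92% and 1.84% of the Rpl10l and Rpl10 counts, and in Xap5l KO sperm it held 9.79%, 10.3% and 8.96%. The groups were far apart, with a difference of 7.56 percentage points (7.26 to 7.92 over the libraries left out). Rpl39l held 20.3%, 14.3% and 16.1% of the Rpl39l and Rpl39 counts in WT sperm and 35.1%, 40.3% and 30.3% in KO sperm, a difference of 18.3 points (15.8 to 20.8). In testes the shares moved down. Rpl10l held 41.7%, 44.5% and 31.1% in WT, against 12.9%, 14.4% and 21.3% in the cKO libraries, a difference of −22.9 points (−27.0 to −20.2). Rpl39l held 72.0%, 74.0% and 64.9% in WT and 40.5%, 35.1% and 42.6% in cKO testes, a difference of −30.9 points (−33.6 to −28.7). Each of these 4 differences had an exact two-sided permutation p of 0.1, the smallest that 3 against 3 libraries allow, and 0.125 after Benjamini-Hochberg adjustment over 15 tests. None of the 15 could therefore pass 0.05.

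**Figure D2:**
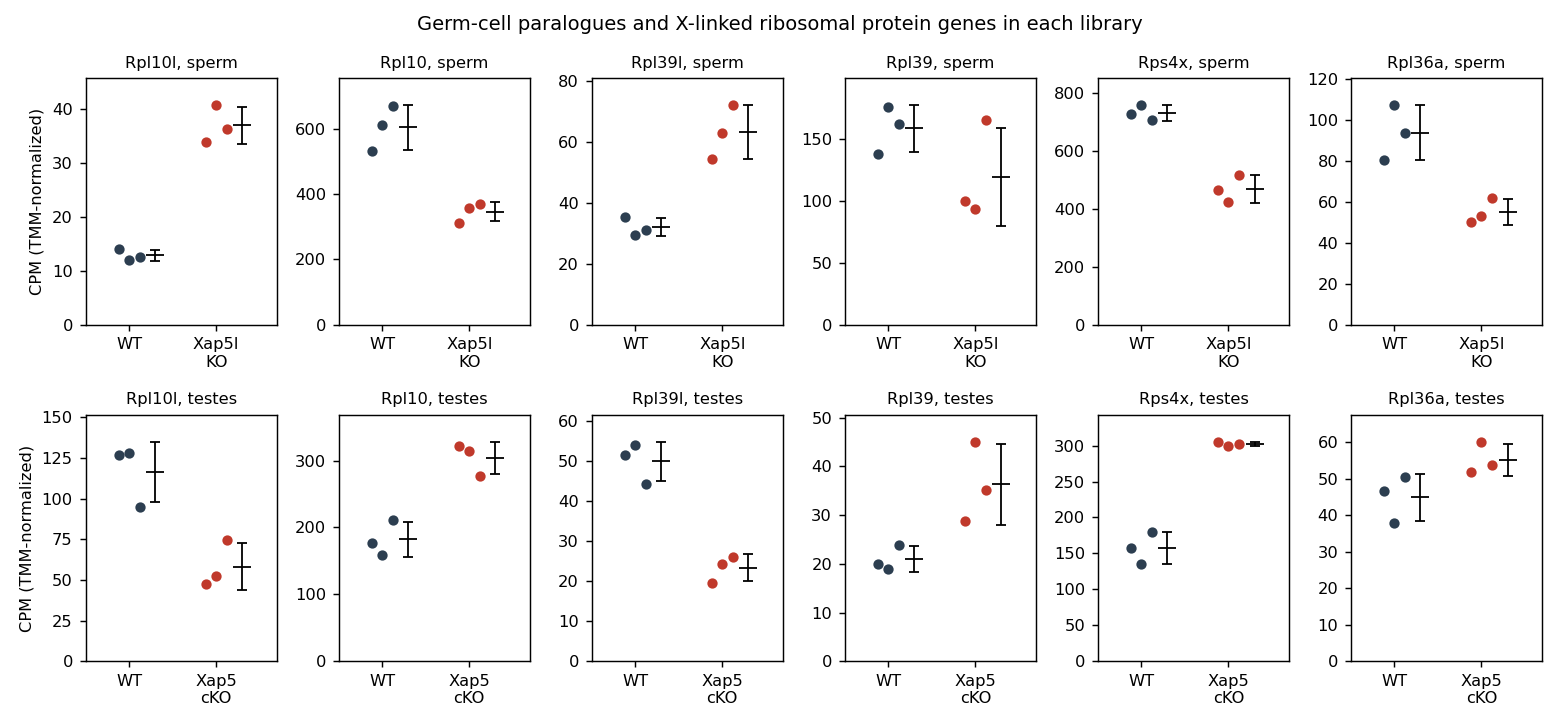
TMM-normalized CPM of Rpl10l, Rpl39l and X-linked ribosomal protein genes in each library of sperm and testes, with points for the 3 libraries of each genotype and bars for the mean ± SD. Rpl10l was 12.9 in WT and 37.0 in Xap5l KO sperm, and 117 in WT and 58.3 in Xap5 cKO testes.

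Of the other pairs, Rpl3l, Rpl22l1, Rpl36al and Rps4l (the last only in sperm) also had shares whose groups did not overlap, with an exact permutation p of 0.1. Rpl36al, for example, held a mean of 37.1% of the Rpl36al and Rpl36a counts in WT and 42.4% in KO sperm, and 57.5% in WT and 49.5% in cKO testes. Rpl7l1 had an exact permutation p of 0.2 in both tissues, and Rps27l had 0.6 in sperm. In testes Rps27l had an exact permutation p of 0.1, but its share of 79.6% in WT replicate 3, against 49.7% and 53.5% in the other WT libraries, went with the low Rps27 and high Rps27rt counts of that library. The difference ran from −22.1 to −7.09 points over the libraries left out, the smallest of them without WT replicate 3. For Rpl22l1 in sperm it ran from 2.32 to 10.2 points, the smallest without KO replicate 3.

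Rpl3l, the muscle form of Rpl3, had the lowest fold change of any tested member in testes. It was counted 71, 95 and 76 times in WT replicates, and 20, 19 and 0 times in Xap5 cKO testes. The groups did not overlap, at a level of 2.28 ± 0.285 CPM in WT and 0.393 ± 0.342 in cKO (log2 fold change −2.52 ± 0.802 SE, adjusted p 0.0251). The call was lost without WT replicate 1 or WT replicate 2, and the adjusted p ran from 0.0051 to 0.0744 over the libraries left out. Its partner Rpl3, which lies close to the peptidyl transferase centre, rose in testes (log2 fold change 0.34, adjusted p 0.00302). The other paralogues did not pass there: Rpl7l1 had a log2 fold change of −0.19, Rpl36al −0.16, Rps27l −0.15 and Rpl22l1 0.35. Rpl7l1 passed without WT replicate 1 and Rpl22l1 without cKO replicate 1.

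Outside the paralogues, Rps24, a small-subunit protein needed to mature the small-subunit rRNA, had WT counts of 15257, 15782 and 16001, against 9874, 11278 and 11102 in Xap5 cKO testes. Its groups were well separated, at 444 ± 10.7 and 325 ± 15.98 CPM (log2 fold change −0.45, adjusted p 0.000172), and its log2 fold change ran from −0.48 to −0.40 over the libraries left out, with the call kept each time. Others that fell had smaller changes: Rpl29 and Rps7 had log2 fold changes of −0.33 and −0.31 (adjusted p 0.00339 and 0.00121), Rpl32 had −0.32 (adjusted p 0.00655), and Rpl10a, Rpl12 and Rps15 ran from −0.29 to −0.18. Rps15 lost the call without WT replicate 1 or cKO replicates 1 or 3. On the rising side, Rps19 (0.37, adjusted p 0.0125) and Rps29 (0.43, adjusted p 0.0415) are, with Rps24 and Rps7, Diamond-Blackfan anemia genes. Rps29 lost the call without WT replicates 1 or 2 or cKO replicates 2 or 3, and Rps19 without WT replicate 2. Of 22 tested entries of those genes, 2 fell and 3 rose, where 28.1% of all genes fell and 25% rose. The last of the 3 was Rpl11 (0.17, adjusted p 0.0341). Rplp1 rose by 0.22 (adjusted p 0.0473), while Rplp0 and Rplp2 did not pass (−0.04 and −0.05). Rpl5 had 0.06 (adjusted p 0.382). By position on the ribosome, 1 of 9 exit-tunnel members rose (Rpl39) and 1 of 6 entries at the mRNA entry and head (Rps3), where 25% of all genes rose. Rps9, Rps16, Rps3a1, Rpl13a and Rps3 also rose, with log2 fold changes from 0.17 to 0.23. Rpl11 and Rplp1 lost the call without WT replicate 2 or cKO replicates 2 or 3, Rpl11 also without cKO replicate 1 and Rplp1 without WT replicate 1. Rps16 lost it without WT replicates 1 or 2 or cKO replicates 2 or 3, Rps3a1 without WT replicates 1 or 2 or cKO replicates 1 or 2, Rpl13a without those same 4 libraries, and Rps3 without any of those 4 or cKO replicate 3.

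Rps27a, which encodes a ubiquitin fused to a small-subunit protein, was counted 1805, 1809 and 2213 times in WT replicates, and 5310, 3925 and 4799 times in Xap5 cKO testes. Every cKO library was above every WT library (55.0 ± 6.03 and 142 ± 25.1 CPM, log2 fold change 1.37, adjusted p 5.38e-05), and its log2 fold change stayed between 1.26 and 1.51 over the libraries left out. Rps27a lies at chr11:29545846-29548109 on the − strand of GRCm38 and shares exonic bases with Clhc1 on the other strand. Clhc1, looked at after the values of Rps27a were seen, had WT counts of 510, 531 and 229, against 70, 66 and 35 in cKO testes (log2 fold change −2.80, adjusted p 0.000353), so the overlapping gene moved the other way. Genes that overlap other members on the other strand did not all do so. Lrsam1 (−0.05, with Rpl12) and Cand2 (−0.19, with Rpl32) in testes had their member's sign without passing. So did Nkiras1 (−0.30, with Rpl15) and Fam69a (−0.13, with Rpl5) in sperm. Vps52, which overlaps Rps18, fell in testes (−0.50, adjusted p 0.0231).

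Numbered repeats and entries with near-identical sequence were also read as sums in testes. Rps18-2 was counted 159, 217 and 277 times in WT replicates, and 1320, 751 and 1005 times in Xap5 cKO testes (log2 fold change 2.35, adjusted p 9.36e-05), and its groups did not overlap. Over the libraries left out it ran from 2.11 to 2.55. The Rps18 entry itself had 1380, 1584 and 2140 in WT and 209, 2784 and 1016 in cKO, so that cKO replicate 2 was above the WT libraries in both entries. Summed over the 4 Rps18 entries the change was 0.39 on the log2 scale (adjusted p 0.226), so the sum did not pass. Rps27 and Rps27rt have identical coding sequences and share a run of 341 bases between their transcripts. Rps27 had 1997, 1859 and 557 counts in WT, and Rps27rt had 468, 742 and 2687, so that the low Rps27 library was the high Rps27rt library. Their sum gave 0.13 (adjusted p 0.435). The 4 Rps28 entries gave −0.11 when summed (adjusted p 0.611). Rps27rt alone ran from −1.34 to 0.13 over the libraries left out and passed in none of those fits. In sperm, where no member entry is numbered, Rps18 had a log2 fold change of −0.56. These sums were chosen after the data had been seen.

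Genes that work with the ribosome were read in testes as well, where 28.1% of all genes fell and 25% rose. Of 86 mitochondrial ribosomal protein entries 30 fell and 2 rose, around a median log2 fold change of −0.22. Mrpl38 (−0.81) and Mrpl39 (−0.78) fell, and Mrpl36 (0.47) and Mrpl10 (0.32) rose. Of 50 ribosome biogenesis genes 30 fell and 1 rose, around a median of −0.31. Taf1b (−1.33), a subunit of the factor that recruits RNA polymerase I, and Mdn1 (−1.05), an ATPase that remodels large-subunit precursors, had the lowest values, and Ubtf (0.40), which binds rDNA promoters, rose. Of 17 translation factors with TOP mRNAs 4 fell and 5 rose, around a median of 0.00. Pabpc1 (−1.17), the poly(A)-binding protein, and Nap1l1 (−1.01) fell, and Tpt1 (0.51) and Eif3f (0.27) rose. Of 4 entries of ribosomal and ribosome-bound proteins under other names, 2 rose. These were Fau (0.25), which encodes a small-subunit protein, and Rack1-2 (0.21), an entry of a ribosome-bound scaffold protein. The other 2 had negative changes, the lowest at −0.01, and did not pass. The Rack1 entry, the most abundant of the 4, had 292, 252 and 263 CPM in WT and 275, 283 and 243 in cKO testes.

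Cell type markers in testes moved in both directions beside Rpl10l, Rpl39l and the X-linked members. All 8 pachytene entries fell, with sums of 2527, 2466 and 1243 CPM in WT, against 176, 178 and 275 in the cKO libraries, and Hspa2 the most abundant. All 6 leptotene and zygotene markers fell as well, from 1489, 1528 and 1326 CPM in WT to 654, 706 and 907 in cKO, with Sycp1 the most abundant. The groups did not overlap in either list. Of 7 spermatogonia markers 5 fell and 1 rose, with sums of 586, 615 and 689 CPM in WT and 465, 469 and 437 in cKO and Uchl1 the most abundant. Of 4 round spermatid markers tested 1 fell, with sums of 37.1, 35.8 and 18.6 CPM in WT and 10.2, 11.9 and 12.8 in cKO, Acr the most abundant and Catsper1 at 0. Elongating spermatid markers summed to under 1 CPM in every library, with Odf1 the most abundant, Prm2 at 0 and none tested. The markers of meiotic cells were thus lower in cKO testes.

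Somatic markers were mostly higher in the same libraries. Of 7 Sertoli cell entries 5 rose, with sums of 1689, 1780 and 1952 CPM in WT and 2888, 2940 and 3017 in cKO testes and Aard the most abundant. Of 6 Leydig cell markers 3 rose, with sums of 423, 253 and 335 CPM in WT and 865, 853 and 407 in cKO and Hsd3b6 the most abundant. Of 4 peritubular myoid markers 2 rose, with sums of 599, 489 and 643 CPM in WT and 743, 764 and 698 in cKO and Acta2 the most abundant. Leukocyte markers rose for 5 of 6 tested, with sums of 98.2, 67.6 and 73.6 CPM in WT and 177, 191 and 145 in cKO, Lyz2 the most abundant and S100a8 and S100a9 at 0. Erythroid markers summed to 38.6, 33.8 and 59.5 CPM in WT and 70.8, 80.9 and 26.7 in cKO, with Hbb-bs the most abundant and 0 of 4 passing (0 at an unadjusted p under 0.05, 0 in DESeq2). General epithelium markers summed to 60.4, 67.0 and 57.6 CPM in WT and 45.7, 47.7 and 53.3 in cKO, with Epcam the most abundant, 1 falling and 1 rising of 4 tested. Epididymal epithelium markers were under 1 CPM in every testis library, with Defb20 the most abundant, Crisp1, Lcn5, Lcn8 and Spag11b at 0 and none tested. The part of these shifts between cell types in the changes of ribosomal protein genes was not tested.

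Promoter sequence was compared because Rpl10l and Rpl39l moved together in both tissues. RefSeq promoters of GRCm38.p6, from 250 bases before to 50 after each start, were found for 68 member genes (80 promoters) and were searched on both strands. The GC box GGGCGG was in 57.5% of member promoters and 35.7% of all 32851 promoters. The ETS core CCGGAAG was in 33.8% of member promoters and 8.86% of all, and TATAAA in 10% and 13.6%. The Rpl10l promoter, chr12:66284352-66284651 (−), held 1 GC box and 0 ETS cores, and the Rpl39l promoter, chr16:10169978-10170277 (+), held 2 ETS cores and 0 GC boxes. The 2 are shown in their gene's direction, with GC boxes and ETS cores in capitals, so that the difference in these letters can be seen.
Rpl10l promoter: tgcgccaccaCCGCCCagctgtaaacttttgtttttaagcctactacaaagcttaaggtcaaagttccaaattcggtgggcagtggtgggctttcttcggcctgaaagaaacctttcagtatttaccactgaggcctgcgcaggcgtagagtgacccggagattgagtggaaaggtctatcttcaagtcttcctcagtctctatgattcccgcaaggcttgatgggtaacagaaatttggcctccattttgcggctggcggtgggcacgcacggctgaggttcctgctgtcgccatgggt
Rpl39l promoter: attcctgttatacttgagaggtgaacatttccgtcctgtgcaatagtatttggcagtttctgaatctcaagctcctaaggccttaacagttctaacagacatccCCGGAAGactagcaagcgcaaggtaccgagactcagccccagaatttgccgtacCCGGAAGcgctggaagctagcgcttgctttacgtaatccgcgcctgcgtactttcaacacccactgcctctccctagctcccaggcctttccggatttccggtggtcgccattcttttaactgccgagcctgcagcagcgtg
A match of letters is a description and shows no binding.

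Each genotype had 3 libraries, and many calls, in sperm those of Rpl10l and Rpl39l among them, were lost when single libraries were left out. mRNA counts say nothing of ribosome number or protein. How reads that fit several places were assigned, and whether counting used the strand, is not given in the sources used here, so entries with near-identical sequence are best read as sums.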

How the data were processed

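The deposited values are raw counts per gene entry, in separate tables for sperm and testes. The authors made them from paired-end poly(A) RNA reads with FastQC 0.11.2, Trimmomatic 0.36 and HISAT2 2.1.0 on GRCm38; their methods also name StringTie assembly with FPKM as the measure of expression, and tests with DESeq2 1.12.4. The tool that made the deposited counts is not given in the sources used here. From the counts, each tissue was fitted alone (R 4.3.3) with edgeR 4.0.16: filterByExpr, TMM scaling, and the quasi-likelihood test with Benjamini-Hochberg adjustment over all genes tested. CPM are TMM-normalized. Pairs of paralogues were compared by exact two-sided permutation tests over libraries. Alternatives were DESeq2 1.42.0, other scalings and filters, a replicate block, summed repeated entries, adjusted p under 0.01 and each library left out. Members, gene lists and tests were chosen with earlier results of these data known. Named members are the paralogues, X-linked, stalk and Rpl5/Rpl11 members, the 5 largest rises and falls that passed, and the 3 highest and lowest per kilobase; others were named after their values were seen.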

Additional observations from a re-analysis of the deposited data

How the results depend on the processing

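The count of ribosomal protein genes that fell in sperm, 9, was 1 without the low-count filter, 3 with RLE scaling, 0 with library size alone, 31 with DESeq2, 0 with adjusted p under 0.01 and 0 to 17 over the libraries left out. The count that rose in sperm, 2, was 1 with library size alone, 0 with adjusted p under 0.01 and 0 to 2 over the libraries left out. The count that rose in testes, 15, was 7 with adjusted p under 0.01 and 7 to 18 over the libraries left out. With replicate number as a block, 0 fell and 2 rose in sperm, and 9 fell and 10 rose in testes. In that testes fit 8 of 41 named members lost a call. Correlations between equally numbered WT and mutant residuals were 0.149, −0.02 and −0.08 in sperm and 0.01, −0.01 and −0.01 in testes. The equally numbered library was the best match only for replicate 1 in sperm. Replicate 1 also had the lowest TMM factor and the lowest share of counts in members in both sperm genotypes. With 3 libraries per genotype, these correlations cannot decide whether libraries of the same number were paired. Without mitochondrial genes, members took 3.98% of counts in WT and 2.55% in Xap5l KO sperm. The cause was not tested. The members' median log2 fold change ran from −0.61 to −0.52 in sperm and from −0.02 to 0.06 in testes over all alternatives. Of 463 values of 31 named members in sperm, 82 lost and 9 gained a call, and of 608 values of 41 in testes, 53 lost and 7 gained one; 0 reversed. Summing near-identical entries was added after the data were seen.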
